A study of Sus scrofa with 9 samples.

Results

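CCL5, CCL4 and CCL3L1 are chemokine genes of the C-C family, and their products draw leukocytes to sites of inflammation. They were taken as 3 genes of the 3052 that could be named on the array, and every probe whose sequence accession maps to one of them was used, which gave 4 of 43603 probes. Per the labels, 9 arrays measured RNA of T cells sorted from peripheral blood mononuclear cells of sows, with 3 arrays (n = 3) for each of 3 fractions. The CD3+CD4+CD8+ cells are called double positive here, and the CD3+CD4+ and CD3+CD8+ cells are called the CD4 and the CD8 fraction. No treatment is named in the labels. The sources used here give neither the age and number of the sows nor the purity of the sorts. The labels call the arrays of a fraction biological replicates. The gates are named by the markers that the cells carry, so the labels do not say that the CD4 fraction was cleared of CD8 or the CD8 fraction of CD4. The genes were chosen because their signals differed between these fractions, so their levels are given as a description and without a test.

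Chemokines are small secreted proteins that bind G protein-coupled receptors and direct the movement of the cells that carry them. CCL5, also known as RANTES, and the macrophage inflammatory proteins CCL4 (MIP-1 beta) and CCL3L1 (a form of MIP-1 alpha) attract overlapping sets of leukocytes. CCL5 and CCL3-type chemokines bind CCR1. Effector and memory T cells and natural killer cells make these chemokines after activation, and memory T cells can hold CCL5 transcripts ready for rapid release. Pig blood is known for many T cells with both coreceptors, which are regarded as mostly antigen-experienced helper cells. In the annotation of the pig assembly Sscrofa11.1, CCL4 and CCL3L1 are neighbours with 0 protein-coding genes between them, and 4 protein-coding genes lie between CCL3L1 and CCL5 on the same chromosome. The chemokine genes CCL14 and CCL16 are among those 4.

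The signal of an array is a spot brightness in scanner units, and log2 values are given relative to the 75th percentile of the array's own probes, so 0 is the brightness of that percentile. That percentile lay between 15.2 and 84.1 units, and the scanner software called 32.6% to 53.7% of an array's probes well above background. A dim array therefore has a higher lower limit. The lowest signal called well above background was -3.21 on CD4 array 1 and -0.79 on CD4 array 2. The sort was visible in its own markers, with CD4 at 2.14 ± 0.91, 1.92 ± 0.44 and -2.04 ± 1.24 (mean ± SD, n = 3) in the double positive, CD4 and CD8 fractions, and CD8A at 3.47 ± 0.76, 0.27 ± 0.67 and 5.35 ± 0.57. The T cell genes CD3E and CD3G were well above background on all 9 arrays.

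CCL5 was high in double positive cells and in the CD8 fraction and low in the CD4 fraction by both of its probes. The probe A_72_P623643, the one with the higher mean, read 3.81, 2.79 and 1.81 on double positive arrays 1, 2 and 3. The CD4 arrays gave -0.40, -2.94 and -1.15, and those of the CD8 fraction 4.50, 4.43 and 2.67. Every double positive and every CD8 array lay above every CD4 array, and the double positive and CD8 arrays overlapped. The means were 2.80 ± 1.00 for double positive, -1.50 ± 1.30 for CD4 and 3.87 ± 1.04 for CD8 cells. Double positive cells thus exceeded the CD4 fraction by 4.30 on the log2 scale (SE 0.72, 19.7-fold). The CD4 fraction stood below the CD8 fraction by 41.1-fold (difference -5.36, SE 0.72). The difference between double positive cells and the CD8 fraction was -1.06 (SE 0.72). In these sorted bulk samples, fewer cells that make a transcript and less of it per cell cannot be told apart.

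In scanner units, the same CCL5 probe read 558, 294 and 66.6 on the double positive arrays, 63.8, 1.99 and 13.0 in the CD4 fraction and 415, 525 and 189 in CD8 cells. On CD4 array 2 the signal was 1.12 times the scanner's own error estimate, and the raw spot brightness of 41.0 stood close to the median of 36.0 over the negative control spots of that array. That reading is therefore a low signal and not a measured level. With it raised to -0.79, the lowest signal well above background on that array, the difference of double positive from CD4 cells was 3.58 in place of 4.30, and CD8 cells exceeded CD4 cells 25.0-fold in place of 41.1-fold. Before scaling, double positive array 3 (66.6) and CD4 array 1 (63.8) were nearly level. Their 75th percentiles were 19.0 and 84.1, so the gap of 1.81 against -0.40 between these arrays comes from the scaling.

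The second CCL5 probe, A_72_P115401, gave the same order of fractions. It read 2.01, 0.75 and -0.27 on the double positive arrays, -2.95, -2.43 and -3.35 for the CD4 fraction, and 3.30, 0.21 and 0.77 for CD8 cells. Again no CD4 array reached a double positive or a CD8 array, and the other two fractions overlapped. Double positive cells exceeded the CD4 fraction by 3.75 (SE 0.78, 13.4-fold), and the CD4 fraction stood below the CD8 fraction with a difference of -4.34 (SE 0.78). Against the CD8 fraction the difference of double positive cells was -0.59 (SE 0.78). It changed sign, to 0.34, without CD8 array 1, the array with by far the highest reading of this probe in its fraction. In the CD4 fraction the first probe was well above background on 2 of 3 arrays and the second on 1 of 3, so the folds of both probes rest partly on signals near background. With the CD4 readings of the second probe that were not well above background raised in the same way, its differences were 2.68 and -3.27.

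**Figure D1:**
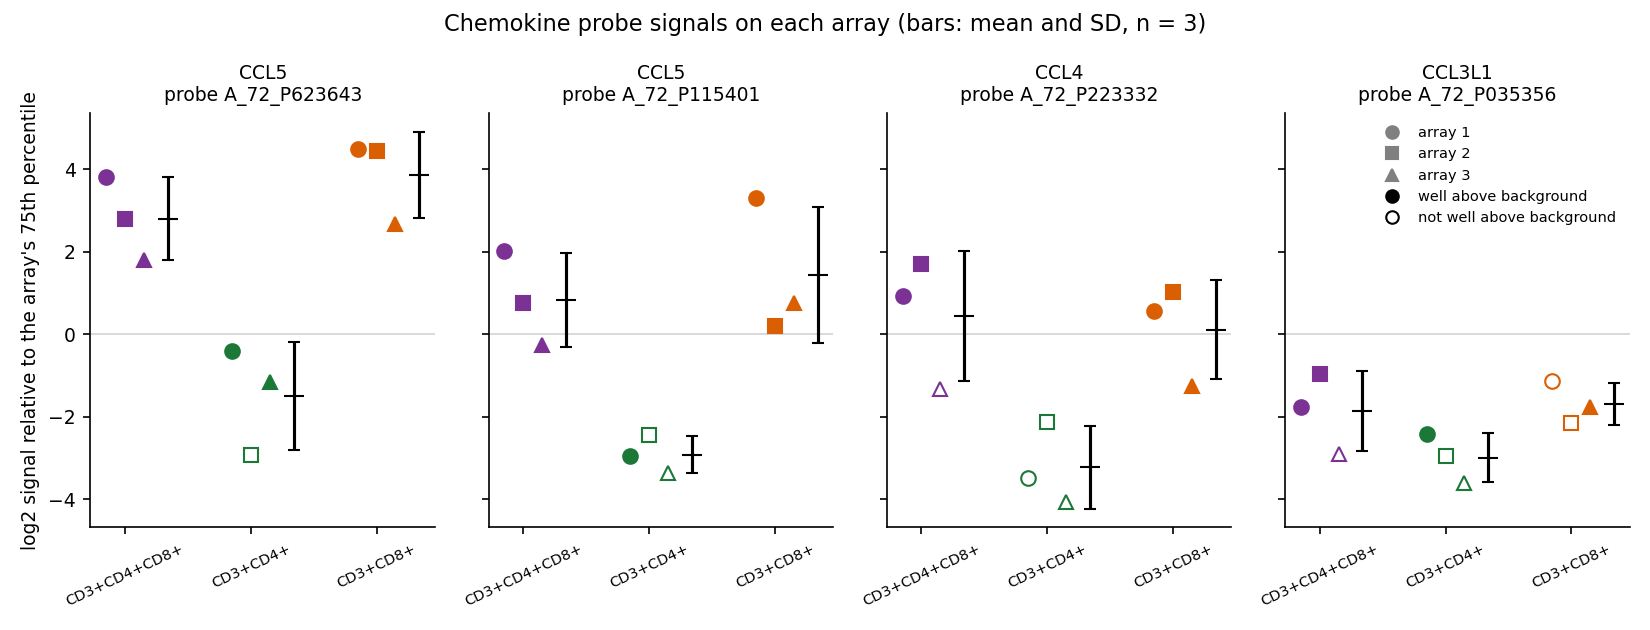
Log2 signal relative to the array's 75th percentile for the 4 chemokine probes, with 1 symbol per array, filled where the spot was well above background, and black bars for the mean and SD (n = 3). For CCL5 and CCL4 no CD3+CD4+ reading, filled or open, reaches a CD3+CD4+CD8+ reading. The CD3+CD4+CD8+ and CD3+CD8+ arrays overlap in every panel.

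The pair of CCL5 probes agreed on the order of the fractions and less well on single arrays. The first probe exceeded the second by 1.94 ± 1.24 on the log2 scale (mean ± SD over 9 arrays). On the double positive arrays this gap was steady, at 1.80, 2.04 and 2.08. On the CD8 arrays it was 1.19, 4.22 and 1.90, and on CD4 array 2, where neither probe was well above background, it was -0.50. CD8 array 2 thus ranked second of its fraction by one probe (4.43) and lowest by the other (0.21), with both readings well above background. Among the 362 named genes with exactly 2 tested probes, the median SD of such a gap was 0.65, and 28 genes had a larger one than CCL5. The probes' estimates differed by 0.55 for double positive against CD4, by 0.47 for double positive against CD8 and by 1.02 for CD4 against CD8, where the medians over those genes were 0.21, 0.27 and 0.31. What each probe hybridizes to was not tested.

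**Figure D2:**
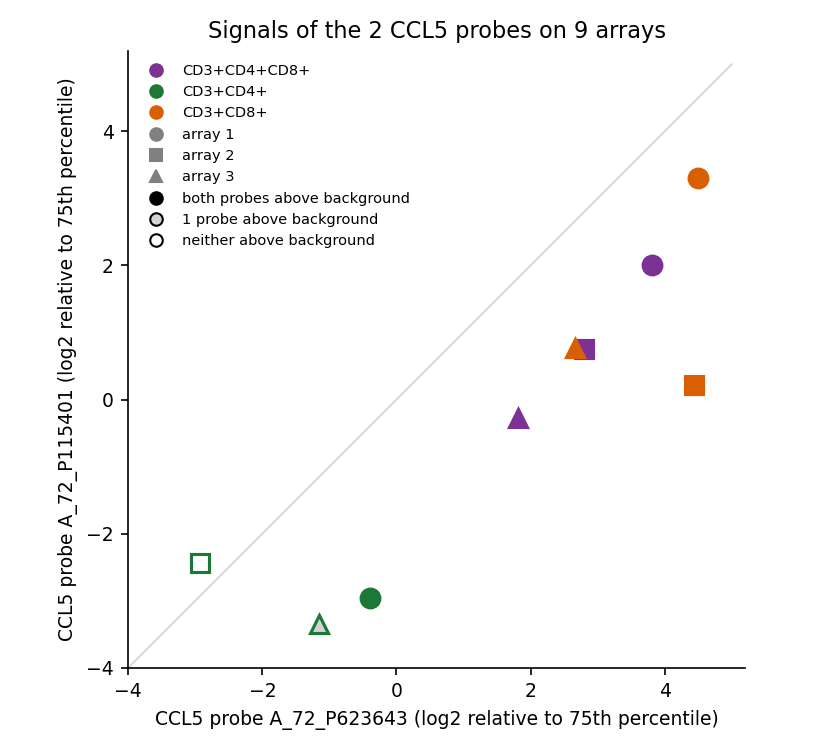
Log2 signals of both CCL5 probes, each relative to the array's 75th percentile, with 1 symbol per array and the diagonal of equal values. The CD3+CD4+ arrays lie apart at the lower left, and CD3+CD8+ array 2 (4.43 and 0.21) lies farthest from the diagonal.

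CCL4 was found in double positive cells and in the CD8 fraction and was not well above background on any CD4 array. Its probe, A_72_P223332, read 0.92, 1.71 and -1.32 on the double positive arrays, the last of these not well above background. It read -3.49, -2.12 and -4.06 in the CD4 fraction and 0.56, 1.02 and -1.25 in CD8 cells. The lowest arrays of double positive cells and of the CD8 fraction, both numbered 3, lay close together and still read above every CD4 array. Both lay below -0.79, the lowest signal well above background on CD4 array 2, so their order against that array is not settled. The means were 0.44 ± 1.57, -3.22 ± 1.00 and 0.11 ± 1.20 in double positive cells, the CD4 and the CD8 fraction. Because the CD4 fraction gives only a bound, the CD8 fraction exceeded it at least 4.11-fold. For double positive cells the same rule gave 5.15-fold. Their mean includes array 3, which was not well above background, so that value is not a strict lower limit. Both values set the mean of the brighter fraction against each dim array's own signal or its lowest signal well above background, whichever was higher. The measured differences were 3.66 for double positive against CD4 and -3.33 for CD4 against CD8 (SE 0.85 for both).

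Double positive cells and the CD8 fraction were not separated by CCL4. Their difference was 0.33 (SE 0.85), smaller than the SD within either fraction. It became -0.31 without double positive array 2 and -0.35 without CD8 array 3. In scanner units the probe read 74.9, 139.5 and 7.60 on the double positive arrays, 7.50, 3.51 and 1.72 in the CD4 fraction and 27.2, 49.1 and 12.5 in CD8 cells. Double positive array 3 and CD4 array 1 were again nearly level before scaling (7.60 and 7.50), and CD4 array 1 had the highest 75th percentile of the 9.

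CCL3L1 was near background throughout. Its probe, A_72_P035356, was well above background on 2 of 3 double positive arrays, 1 of 3 CD4 arrays and 1 of 3 CD8 arrays, so it did not meet the filter for testing, which asks for all 3 arrays of at least 1 fraction. It read -1.75, -0.96 and -2.89 on the double positive arrays, -2.43, -2.95 and -3.61 in the CD4 fraction and -1.14, -2.14 and -1.77 in CD8 cells. Double positive and CD4 arrays overlapped, as did double positive and CD8 arrays, while all 3 CD8 arrays lay above all 3 CD4 arrays. The means were -1.87 ± 0.97, -3.00 ± 0.59 and -1.68 ± 0.51 in the same order. The differences were 1.13 for double positive against CD4, -0.18 for double positive against CD8 and -1.31 for CD4 against CD8 (SE 0.79 for each, from a fit of all probes without the filter). Within slide 3 the first of these shrank to 0.13. In scanner units the highest reading was 21.9 on double positive array 2, and CD4 array 1 read 15.6, more than double positive array 1 at 11.8. The order of the fractions for CCL3L1 therefore rests on readings that are mostly not well above background, and with the CD4 readings raised to their arrays' lowest signal well above background the differences from the CD4 fraction were -0.20 for double positive cells and, for CD4 against CD8, 0.015.

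Set side by side, no double positive array overlapped a CD4 array in the 3 CCL5 and CCL4 probes, and CCL3L1 overlapped. Among all tested probes, 5.22% were higher in double positive cells without overlap. All 4 probes lay lower in CD4 than in CD8 cells without overlap, as did 4.24% of tested probes. None of the 4 separated double positive cells from the CD8 fraction, where 4.59% of tested probes were higher and 5.2% lower in double positive cells without overlap. The overlaps take the readings as they stand, also those not well above background, as all CD4 readings of CCL4 were. Since the genes were chosen on these signals, nothing is read from these counts. The comparisons share arrays, so their values are not independent. Over all tested probes the median difference was -0.02, -0.03 and -0.01 for the 3 comparisons.

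The arrays came from 3 slides, of which slide 1 held only double positive array 1. Slide 2 held double positive array 2, CD4 array 2 and CD8 arrays 1 and 2. Slide 3 held double positive array 3, CD4 arrays 1 and 3 and CD8 array 3. Within slide 2 double positive cells exceeded the CD4 fraction by 5.72 and 3.19 in the CCL5 probes and by 3.83 in CCL4, and within slide 3 by 2.59, 2.88 and 2.46. Since no CD4 array overlapped the other fractions in these probes, the direction within a slide was fixed and adds nothing. For the first CCL5 probe the size was larger on slide 2. The CD4 array of that slide was not well above background for either CCL5 probe or for CCL4. The CD4 fraction against the CD8 fraction gave -7.40 and -4.19 in the CCL5 probes and -2.91 in CCL4 within slide 2, and -3.44, -3.92 and -2.53 within slide 3. For CCL3L1 the double positive fraction lay above the CD8 fraction within slide 2 (0.68) and below it within slide 3 (-1.12).

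**Figure D3:**
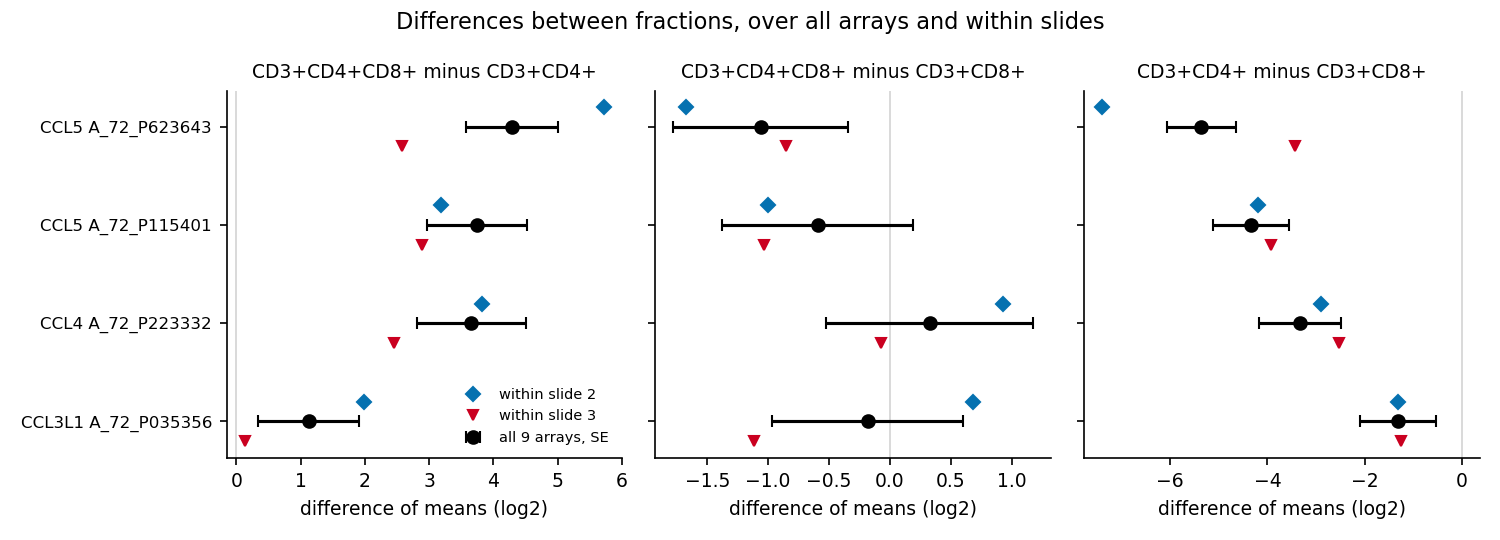
Differences between fractions in mean log2 signal for the 4 chemokine probes, with black circles and SE bars for all 9 arrays, diamonds for slide 2 and triangles for slide 3. The CCL5 and CCL4 differences from the CD3+CD4+ fraction keep their side of 0 on both slides, as they must where arrays do not overlap. Between CD3+CD4+CD8+ and CD3+CD8+, CCL4 and CCL3L1 lie on both sides of 0.

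Within each fraction the chemokines did not rank the arrays alike. Double positive array 3 was the lowest of its fraction by all 4 probes. CCL5 was highest on double positive array 1 by both probes, and CCL4 and CCL3L1 were highest on array 2. In the CD8 fraction CCL5 was highest on array 1 by both probes, and CCL4 was highest on array 2 and lowest on array 3.

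Beyond the chosen genes, 107 genes of the chemokine system and of effector lymphocytes were looked up, and 67 of them had a named probe. The 33 that met the filter were tested with limma, with Benjamini-Hochberg adjustment over all 16023 tested probes. One of the 33 rose in double positive cells over the CD4 fraction, the cytokine gene IFNG, where 0.293% of all tested probes passed in either direction, and 9 had an unadjusted p under 0.05, as did 4.84% of all tested probes. Between double positive cells and the CD8 fraction 0 of 33 passed limma's test (0.312% of all), with 6 at an unadjusted p under 0.05 (6.52% of all). Between the CD4 and the CD8 fraction IFNG and the granzyme gene GZMH were lower in the CD4 fraction (0.437% of all passed), with 6 at an unadjusted p under 0.05 (4.54% of all).

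**Figure D4:**
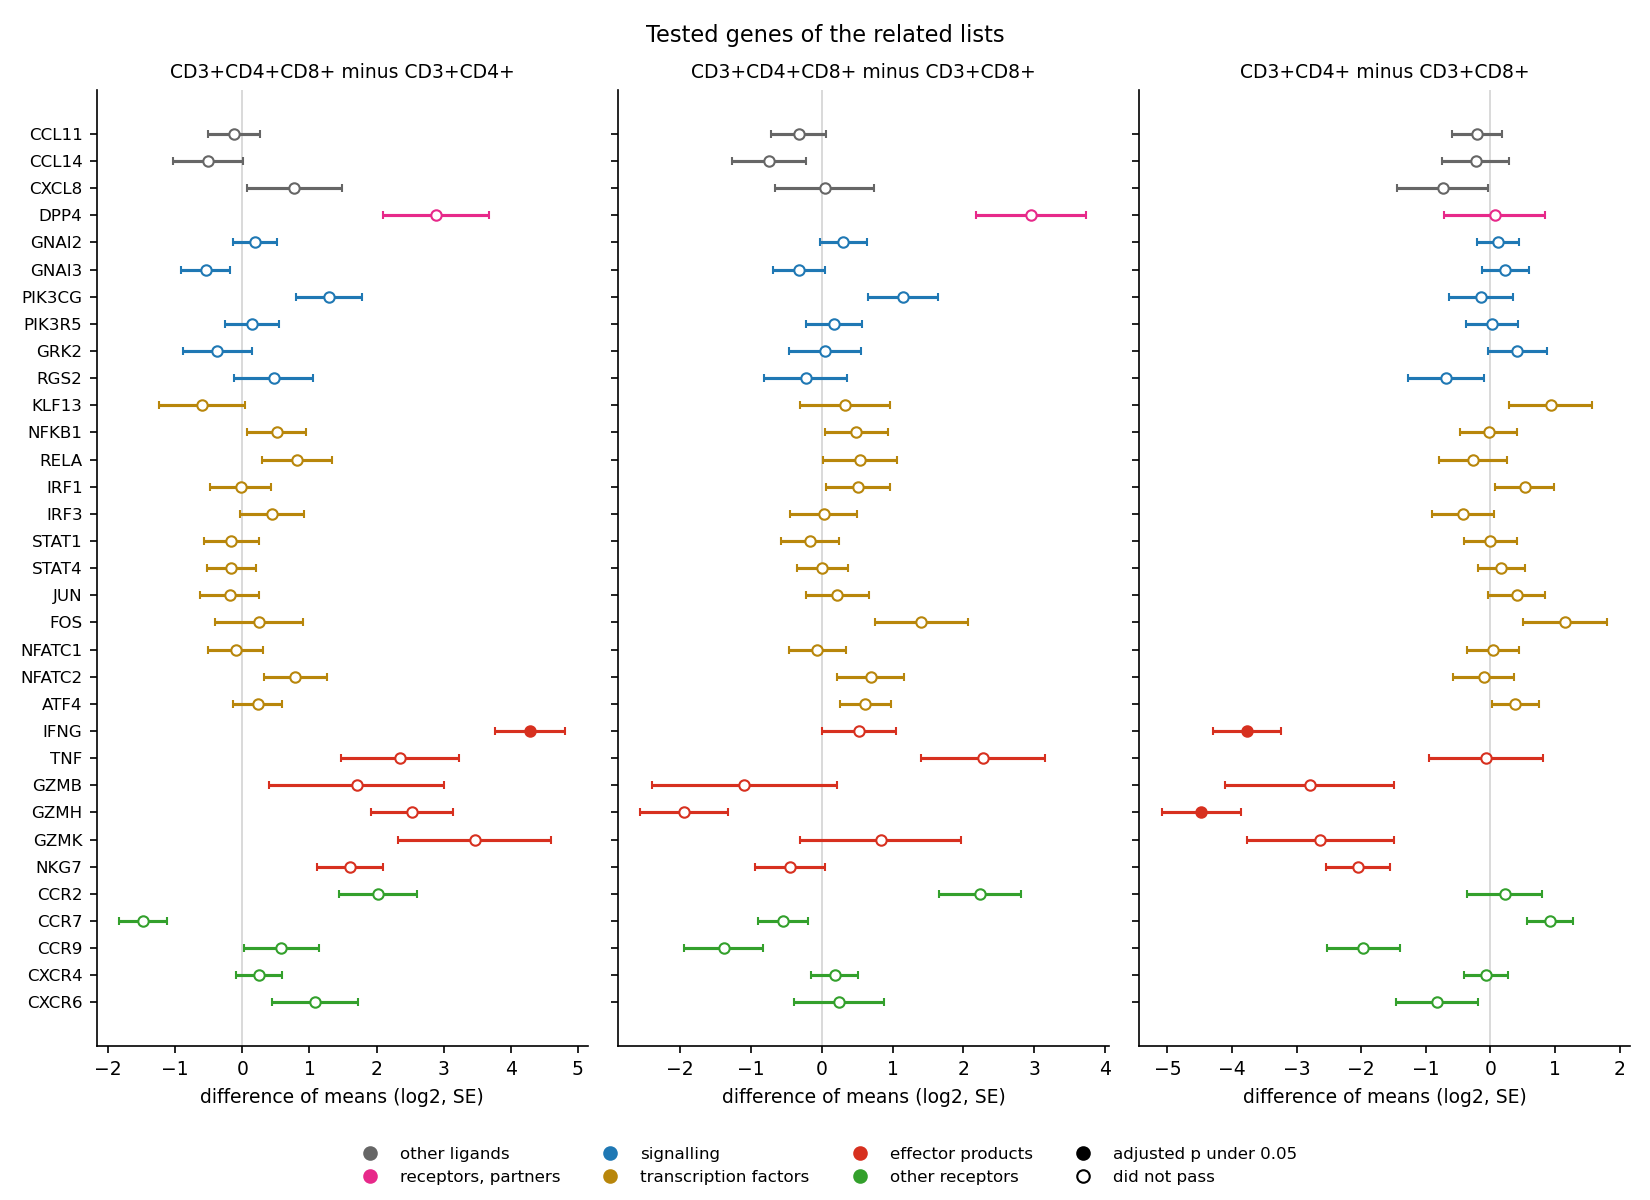
Differences in mean log2 signal with SE bars for the 33 tested genes of the related lists, coloured by list, with filled circles where the limma adjusted p was under 0.05. IFNG stands out at 4.29 in CD3+CD4+CD8+ against CD3+CD4+, and IFNG and GZMH pass in CD3+CD4+ against CD3+CD8+.

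Of 7 receptors and binding partners of the chemokines that were looked at and named on the array, 4 were below background throughout and 1 was tested. CCR1, a receptor of CCL5 and of CCL3-type chemokines, CCR3, which binds CCL5 and eotaxins, the atypical receptor ACKR2, which removes inflammatory chemokines, and CCRL2 were not called well above background on any of the 9 arrays. ACKR1, a chemokine-binding receptor of red cells and vessels, was well above background on 3 arrays, and SDC4, a heparan sulfate proteoglycan, on 4, and neither met the filter. DPP4, the cell surface peptidase CD26 that trims CCL5, stood at 1.94 ± 0.61 in double positive cells, -0.94 ± 0.48 in CD4 and -1.02 ± 1.94 in CD8 cells. Its 3 double positive arrays (2.18, 1.25 and 2.40) lay above all others, the highest of which was CD8 array 1 at 0.83. Of all tested probes 5.22% lay higher in double positive than in CD4 cells without overlap, and 4.59% higher than in CD8 cells. DPP4 met the filter only through the double positive fraction, which favours such an order. The DPP4 differences of 2.89 from the CD4 and 2.96 from the CD8 fraction (SE 0.78) did not pass (limma adjusted p = 0.223 and 0.218).

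Few other chemokine ligands were measured at all. Of 32 looked up, 23 had a named probe, 12 of these never reached well above background and 3 were tested, with 0 called by limma in any comparison and 0 at an unadjusted p under 0.05. CXCL8, the neutrophil attractant interleukin 8, was well above background on all 9 arrays, at 1.82 ± 1.32, 1.04 ± 1.19 and 1.78 ± 0.67 in double positive cells, the CD4 and the CD8 fraction. CCL11 (eotaxin) differed by -0.12 (SE 0.39) between double positive cells and the CD4 fraction, and CCL14 by -0.51 (SE 0.52). XCL1, a chemokine of cytotoxic lymphocytes, was well above background on 2 CD8 arrays and on 1 array of each other fraction. It was picked after its values were seen.

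Of 9 effector products with a named probe 6 were tested. IFNG, which encodes interferon gamma, read 1.85, 1.22 and 1.28 on the double positive arrays, -3.09, -2.45 and -2.99 in the CD4 fraction and 1.81, 0.91 and 0.05 in CD8 cells, with 1 of 3 CD4 arrays well above background. Double positive cells exceeded the CD4 fraction 19.6-fold (difference 4.29, SE 0.52, limma adjusted p = 0.00589), and the CD4 fraction fell below the CD8 fraction by 13.6-fold (-3.77, SE 0.52, adjusted p = 0.00661). Without double positive array 1, the only array of its slide, the first call was lost (adjusted p = 0.0513), as it was with the slide as a block (3.98, adjusted p = 0.12) and with the normexp background (1.31, adjusted p = 0.205). The second was lost with normexp (adjusted p = 0.428). With the CD4 readings that were not well above background raised to their arrays' lowest such signal, the folds were 10.1 and 7.03. GZMH was 22.2-fold lower in CD4 than in CD8 cells (-4.47, SE 0.62, adjusted p = 0.00661, 1 of 2 probes called). NKG7, a protein of cytotoxic granules, gave 1.60 (SE 0.49) for double positive against CD4 cells and GZMK, another granzyme, 3.46 (SE 1.14), and neither passed (adjusted p = 0.36 and 0.463). With the replicate number as a block GZMK passed (limma adjusted p = 0.00808), though these numbers were not taken as pairs. That call was lost when the CD8 arrays were renumbered as in the deposited table, where IFNG alone passed. GZMK met the filter only through the double positive fraction. All 6 tested effector genes had positive differences between double positive and CD4 cells (median 2.44, against -0.02 over all tested probes). Of them 1 was called by limma (0.293% of all) and 5 had an unadjusted p under 0.05 (4.84% of all). The list was chosen with earlier results of these data known. IFNG and GZMK were each well above background on 1 of 3 CD4 arrays. Nothing is read from these counts.

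Among transcription factors and signalling proteins linked to these chemokines no gene passed. Of 12 tested factors 0 were called by limma in any comparison and 0 had an unadjusted p under 0.05, with a median difference of 0.10 between double positive and CD4 cells. Of the 4 with the smallest p over the 3 fractions, RELA, an NF-kB subunit, differed by 0.82 (SE 0.53), NFATC2, a factor of T cell activation, by 0.79 (SE 0.47), FOS, a part of AP-1, by 0.25 (SE 0.66) and the stress factor ATF4 by 0.23 (SE 0.36) in this comparison. FOS differed more from the CD8 fraction, by 1.41 for double positive and 1.16 for CD4 cells (SE 0.66, adjusted p = 0.778 and 0.999). Of 6 tested signalling genes 0 were called, and PIK3CG, a kinase downstream of chemokine receptors, gave 1.29 (SE 0.49, adjusted p = 0.683) between double positive and CD4 cells and 1.15 (SE 0.49, adjusted p = 0.714) between double positive and CD8 cells, as the only one of them with an unadjusted p under 0.05 in either. Of 5 other tested chemokine receptors 0 were called by limma. In each comparison 2 had an unadjusted p under 0.05, where 4.84%, 6.52% and 4.54% of all tested probes did. CCR2 met the filter only through the double positive and CCR9 only through the CD8 fraction. Between double positive and CD4 cells the 2 receptors were CCR2, which binds monocyte attractants (2.02, SE 0.58, adjusted p = 0.286), and CCR7, the homing receptor of naive cells (-1.48, SE 0.35, adjusted p = 0.14). Between double positive and CD8 cells they were CCR2 (2.24, adjusted p = 0.213) and CCR9, a gut homing receptor (-1.39, adjusted p = 0.658), and between CD4 and CD8 cells CCR9 (-1.97, adjusted p = 0.338) and CCR7 (0.92, adjusted p = 0.834). CXCR6, a receptor of effector cells, gave 1.08 (SE 0.63) between double positive and CD4 cells.

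The genes whose values over the 9 arrays were most like those of the first CCL5 probe were taken from 1505 named and tested genes by Pearson's r, as a description. The arrays fall into fractions, and r over all of them does not separate differences between fractions from those within. The 8 highest were SLA-DMB (r = 0.97), ADGRG1 (0.96), S1PR5 (0.96), NKG7 (0.95), KLRK1 (0.93), PLGRKT (0.92), CD8A (0.91) and SLA-DRA (0.91). ADGRG1 is an adhesion receptor of cytotoxic lymphocytes, S1PR5 a trafficking receptor of effector cells, KLRK1 the activating receptor NKG2D, and SLA-DMB and SLA-DRA belong to MHC class II. CD8A was used in the sort. For CCL4 the 5 highest were FCGR3A (0.94), PAQR7 (0.94), GZMK (0.89), LOC100514530 (0.89) and ICAM3 (0.89). For CCL3L1, which was near background, they were SOCS4 (0.92), SERPINB9 (0.89), OGT (0.84), NKG7 (0.83) and TMCO1 (0.82). Between the chosen probes r was 0.88 for the pair of CCL5 probes, 0.81 for the first CCL5 probe with CCL4, 0.74 for it with CCL3L1 and 0.81 for CCL4 with CCL3L1.

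**Figure D5:**
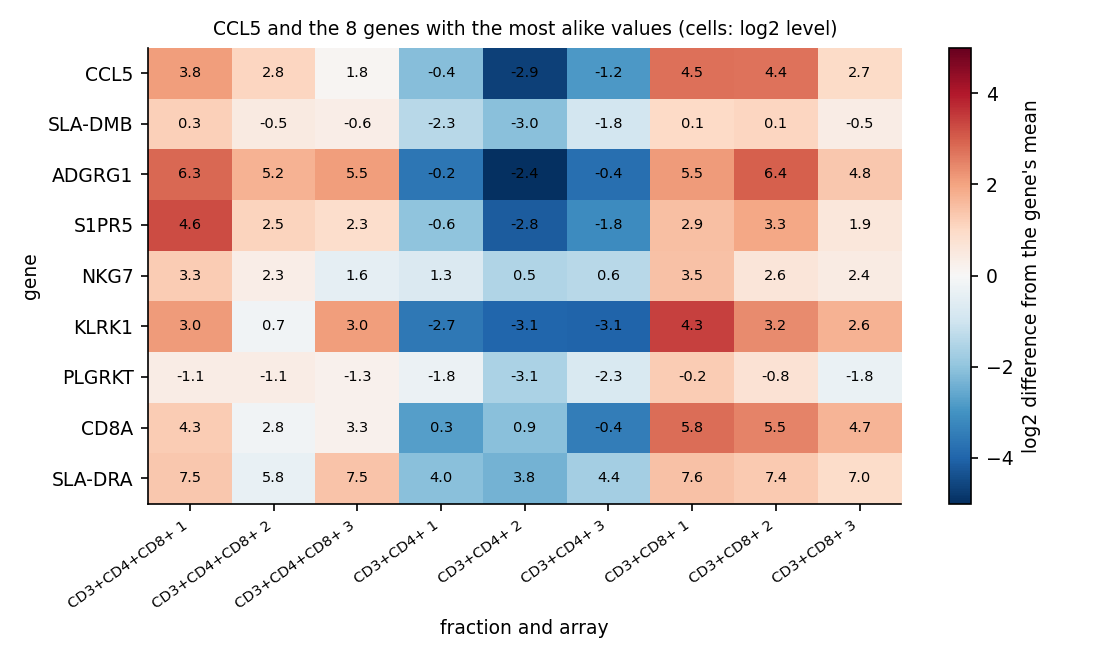
Log2 levels of CCL5 and of the 8 genes with the highest Pearson r to it over 9 arrays, coloured by the distance from each gene's mean. In every row except that of PLGRKT all CD3+CD4+ arrays lie below the arrays of the other fractions.

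Other cells in the sorted fractions could also make these chemokines, so markers of such cells were read. Of 10 markers of natural killer cells 5 had a named probe, and their summed level, in multiples of the 75th percentile, was 37.3 to 95.9 in double positive cells, 6.22 to 13.3 in the CD4 fraction and 24.2 to 55.7 in CD8 cells. Like CCL5 and CCL4 it was lowest in the CD4 fraction. Its range reached higher in double positive than in CD8 cells. Both CCL5 means were higher in CD8 cells and the CCL4 mean in double positive cells, with overlapping arrays in each case. FCGR3A, the Fc receptor CD16, gave most of the summed level, at 5.87 ± 0.78, 3.06 ± 0.84 and 5.14 ± 0.76 on the log2 scale. Its difference between double positive and CD4 cells was 2.81 and did not pass (limma adjusted p = 0.0509), with 1 of its 3 probes called. The defining marker NCR1 was not well above background on any array and KLRB1 on 1. FCER1G, an Fc receptor chain, was well above background on 8 arrays, with means of -0.33, -0.27 and 2.00, and the adaptor TYROBP on 6, with means of -1.25, -1.31 and -0.87, and for both the double positive and CD4 means were nearly level. The part of these markers' cells in the chemokine differences was not tested. Of 12 markers of monocytes and granulocytes 8 were named, with summed levels of 0.852 to 4.67, 2.12 to 2.47 and 1.24 to 6.95. These ranges overlapped, and CD163, S100A8 and S100A9 reached well above background nowhere, while LYZ did so on 7 arrays, S100A12 on 6, CD14 on 5, FCN1 on 3 and VCAN on 1. Their part was not tested. Of 8 platelet markers 5 were named, of which ITGB3, ITGA2B and GP9 were well above background on all 9 arrays, the platelet chemokine PPBP on 2 and TUBB1 on none. The summed platelet level was 1243 to 3100, 1450 to 2313 and 1811 to 2864, nearly all of it from ITGB3. The 1 named marker of gamma delta T cells, CD163L1, reached it nowhere. Of 8 B cell markers 4 were named, with summed levels of 0.48 to 2.94, 1.11 to 2.37 and 5.62 to 12.5, with every CD8 array above the others. CD79A, a part of the B cell receptor, gave most of the CD8 level, and its difference between double positive and CD8 cells passed (-3.20, limma adjusted p = 0.0452).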

How the data were processed

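Per the labels, the RNA was amplified before labelling. Per the file headers, each array was scanned in 1 colour (Cy3, per the labels) and read with Agilent Feature Extraction 11.0.1.1. The deposited intensity is the processed signal, from which that software had removed background and a spatial trend, with no normalization between arrays. The authors' table of values on a log2 scale was deposited without a stated program. All 9 of its columns had a median of 2.60, and each followed the scanner signal of 1 array at r of at least 0.994, so genes were not centred. It served as an alternative.

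Control spots and outlier spots (1 to 12 per array) were left out, spots of a probe were averaged as log2, and the array's 75th percentile was subtracted. No spot was saturated. Probes were named through unversioned RefSeq accessions of Sscrofa11.1, which named 6730 probes (15.4%). The files name no build, so no coordinates are given, and no probe or gene sequence was used here. A probe was tested if some fraction had it well above background on its 3 arrays and each fraction had at least 2 values, which left 16023 probes. One model over all 9 arrays compared the fractions, in limma 3.58.1 under R 4.3.3 (lmFit, eBayes with trend, two-sided, Benjamini-Hochberg at 0.05), tested on simulated data. A gene of several probes is given by its tested probe with the highest mean. The number of arrays limits the precision. P-values set a difference of means against the spread between arrays within the fractions, moderated over all tested probes, with no term for slide. Figures used Python 3.11.15, matplotlib 3.10.9 and numpy 2.4.6.

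The chemokine genes, the gene lists and the rule for naming genes were chosen with earlier results of these data known. The rule took every probe of the 3 genes, every receptor or partner with a named probe (1 gene of that list is not reported here), called list genes, up to 4 others per list by the F test, and the genes most alike in r. Replicate numbers are shared across fractions, but nothing in the labels says what they mark. The deviations from the fraction means correlated between -0.07 and 0.65 for same-numbered arrays, not above 0.1 in each pair, so the numbers were not taken as pairs. Alternatives were other scalings, backgrounds, filters and fits, blocks by replicate number and slide, and leaving out each array. The files hold no mean signal, so the normexp alternative used the median spot signal.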

Additional observations from a re-analysis of the deposited data

How the results depend on the processing

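Leaving out each array gave 108 values of the 12 chemokine differences, of which 103 kept their sign. All moved by less than 1 SD, but this was fixed in advance. With 3 arrays per fraction, leaving out 1 cannot move a difference by more than that SD. Leaving out an array of the fraction not compared does not move it at all. Of 158 values under other settings 138 moved by less than 1 SD and 154 kept their sign. Several of these settings, such as the replicate block and the fit without a variance trend, cannot move a difference. The sign changes in double positive against CD8 cells were these: without CD8 array 1 the second CCL5 probe gave 0.34 and CCL3L1 0.09, without double positive array 2 CCL4 gave -0.31, without CD8 array 3 it gave -0.35, without double positive array 3 CCL3L1 gave 0.33, and within slides CCL4 gave -0.07 (slide 3) and CCL3L1 0.68 (slide 2). The value of CCL3L1 within slide 3, -1.12, kept its sign. The others came with CD4 readings that were not well above background raised to their array's lowest such signal, an alternative chosen after seeing the data, where CCL3L1 gave -0.20 for double positive against CD4 and 0.015 for CD4 against CD8, and CCL4 gave 2.37 and -2.04.

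With the normexp background, whose offset of 50 is added to every signal, double positive against CD4 gave 2.00 and 1.11 for the CCL5 probes, 1.04 for CCL4 and 0.12 for CCL3L1, and CD4 against CD8 gave -2.58, -1.29, -0.68 and -0.22. Within slides 2 and 3 the first CCL5 probe gave 5.72 and 2.59, and -7.40 and -3.44, and CCL3L1 gave 2.00 and 0.13 for double positive against CD4.

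Of the 47 probes called between double positive and CD4 cells, the count became 29 with only these fractions fitted, 2 with the slide as a block, 1 with normexp and 109 without the filter. The 50 between double positive and CD8 cells became 22, 2, 7 and 87 in the same order, 22 with the percentile over probes detected on all arrays and 24 in the deposited table. The 70 between CD4 and CD8 cells became 38 with the slide block and 6 with normexp. With the replicate block the 3 counts were 144, 83 and 110, and with the CD8 arrays renumbered as in the deposited table the first and second were 30 and 21. Leaving out 1 array gave 2 to 55, 1 to 51 and 31 to 81 probes, with the lowest counts of the first and second without double positive array 1 and of the third without CD8 array 2. Other arrays whose loss lowered a count by over 1.5 times were CD4 arrays 2 and 3 for the first (22 and 13), double positive array 2, CD4 arrays 2 and 3 and CD8 arrays 1, 2 and 3 for the second (9, 16, 25, 21, 3 and 18), and CD4 arrays 1 and 2 and CD8 arrays 1 and 3 for the third (41, 40, 41 and 46). The cause was not tested.

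Related genes called between double positive and CD4 cells (1) became 2 with the replicate block (GZMK added) and without the filter. They were 1 with the replicate block after the CD8 arrays were renumbered. They became 0 with the slide block or normexp, and ranged from 0 to 1 with 1 array left out. Between CD4 and CD8 cells (2) they became 4 with the replicate block (GZMK and NKG7 added) and 0 with normexp. Between double positive and CD8 cells they ranged from 0 to 1. The adjusted p of IFNG against the CD4 fraction ranged from 0.000139 to 0.205 and was 0.12 with the slide block. In the CD4 and CD8 comparison the calls of IFNG (0.428) and GZMH (0.0594) were lost with normexp alone. Signal near background limits CCL4 and CCL3L1 in the CD4 fraction, and CCL5 in part. CCL5 was well above background there on 2 of 3 arrays by the first probe and on 1 of 3 by the second.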

Other observations

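CD8 array 1 stood apart from the other CD8 arrays in several genes with lower means in CD4 than in double positive cells. These genes were picked after their values were seen. The second CCL5 probe read 3.30 on it and 0.21 and 0.77 on arrays 2 and 3, whereas the first read 4.50, 4.43 and 2.67 and did not set array 1 apart. TNF, the gene of tumour necrosis factor, read 3.15 on CD8 array 1 and at most -0.48 on the others, DPP4 read 0.83, -3.03 and -0.84 on arrays 1, 2 and 3, and CCR2 read 0.06, -2.34 and -0.64. GZMH went the other way, with its lowest CD8 value on array 1 (4.53, 6.57 and 5.25). TNF gave 2.35 (limma adjusted p = 0.651) for double positive against CD4 cells and 2.28 (adjusted p = 0.615) for double positive against CD8 cells, and neither passed.

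In the deposited table of log2 values, the columns of CD8 arrays 1, 2 and 3 followed the scanner files of CD8 arrays 3, 1 and 2, with r of 0.999, 0.996 and 0.996, against 0.904, 0.919 and 0.895 with the files of their own number. Means over the CD8 fraction do not depend on this order, and the array numbers printed here are those of the scanner files. The sources used here do not settle which order is right.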
